A study of Mus musculus with 12 samples.

Results

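The collagen genes of 4T1 tumours were described across the cell classes of 6 tumours. The members were all genes of the deposited tables of whole tumours whose symbol reads Col, a number, a and a number, and 44 of 19369 genes met this rule. They comprised 11 fibrillar chains, 6 chains of the basement membrane network, 6 chains of the beaded filament (type VI collagen), 3 short-chain network members, the anchoring fibril gene Col7a1, 9 fibril-associated members, 4 transmembrane members, 2 multiplexins and 2 others. 4T1 is a mammary carcinoma line from a BALB/c mouse and forms tumours in immunocompetent mice of that strain; it stands for triple-negative breast cancer in the labels. Per the labels, the line and 5 populations each derived from a single cell of it, named E, EM1, EM2, EM3 and M, were cultured and implanted orthotopically in the mammary fat pad of female BALB/c mice aged 9 to 11 weeks. The series places the clones along a range from epithelial to mesenchymal without saying where each name stands, and a group is 1 clone and 1 tumour. Each tumour was digested with collagenase A and hyaluronidase, enzymes that act on the matrix, and gave a Total library of all dissociated cells and a CD45 library of leukocytes enriched with magnetic beads.

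Collagens are secreted proteins of 3 chains wound into a triple helix. Fibrillar collagens such as types I, III and V form the fibres of connective tissue and are made mainly by fibroblasts, while type IV collagen forms the sheet-like network of basement membranes under endothelium and epithelium and around mural cells. Type VI collagen forms beaded filaments at the cell surface, type VII anchors basement membranes to the tissue beneath, and multiplexins such as types XV and XVIII lie in basement membrane zones.

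The Total libraries held 6709 to 13467 cells and 38499899 to 122055131 UMIs (unique molecular identifiers, each standing for a captured RNA molecule). Their median depth was 2351 to 10042 UMIs per cell. Of the 15 pairs of Total libraries, 6 pairs shared whole cell barcodes, between 99 and 189 each. The first 16 bases of a barcode were shared by 1434 cells of the E and EM3 libraries and by 906 cells of EM1 and EM2, against 85 to 211 in the other pairs. Levels are given as CPM, that is, UMIs of a gene in every 1000000 UMIs of its class and library, with classes taken from the authors' annotation. The classes held their defining markers. The fibroblast class held Dcn at 945 CPM or more and Pecam1 at 25.7 CPM or less. The endothelial class held Pecam1 at 1956 to 2600 CPM, and the tumour class held Krt8 at 1197 to 3077 CPM. CPM does not correct for probe or gene properties, so levels are compared between cells and not read as amounts of protein.

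Col3a1, a fibrillar chain among the most abundant in fibroblasts, and the 3 main type VI genes, which were all lowest in fibroblasts of E, are shown by the bases just before their annotated start. The part between the start sites of Col4a1 and Col4a2, which led in endothelial cells, is shown because these genes overlap head to head. Coordinates are of GRCm38, sequences run 5′ to 3′ on the strand of the gene, and capitals mark a match on either strand to the TATA box string TATAAA, to the CCAAT string or to the GC box string GGGCGG. No 2 matches overlap in the stretches shown. The first 4 stretches overlap no annotated exon.
Col3a1, chr1:45311288-45311537, plus strand: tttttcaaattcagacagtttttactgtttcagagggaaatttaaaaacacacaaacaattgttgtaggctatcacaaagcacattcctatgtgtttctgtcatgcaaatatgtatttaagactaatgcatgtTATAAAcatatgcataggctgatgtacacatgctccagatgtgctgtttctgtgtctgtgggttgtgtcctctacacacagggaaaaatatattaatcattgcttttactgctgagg
Col6a1, chr10:76726169-76726294, minus strand: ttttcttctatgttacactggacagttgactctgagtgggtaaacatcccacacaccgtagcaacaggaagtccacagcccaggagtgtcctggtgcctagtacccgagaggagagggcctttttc
Col6a2, chr10:76623631-76623880, minus strand: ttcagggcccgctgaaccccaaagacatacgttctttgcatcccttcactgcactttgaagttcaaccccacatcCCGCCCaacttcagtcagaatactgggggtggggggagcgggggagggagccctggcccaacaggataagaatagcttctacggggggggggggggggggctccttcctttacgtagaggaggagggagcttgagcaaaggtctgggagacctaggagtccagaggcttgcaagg
Col6a3, chr1:90843972-90844221, minus strand: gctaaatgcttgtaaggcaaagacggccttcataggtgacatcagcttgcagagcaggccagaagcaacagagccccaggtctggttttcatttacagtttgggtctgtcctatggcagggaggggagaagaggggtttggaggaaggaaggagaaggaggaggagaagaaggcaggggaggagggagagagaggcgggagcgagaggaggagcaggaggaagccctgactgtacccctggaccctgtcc
Col4a1 and Col4a2, shared bases, chr8:11312805-11312826, plus strand: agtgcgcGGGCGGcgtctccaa

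Col3a1 held 1 match to TATAAA, which stands in 12.4% of all windows of 250 bases before a start. Col6a2 held 1 match to GGGCGG, on the opposite strand, a motif in 32.7% of such windows. Col6a1, shown over 126 bases, and Col6a3 held no match to these 3 letter strings, so the type VI genes share none of them in these windows. Col6a1 and Col6a2 both lie on the minus strand of chromosome 10, at 76708792 to 76726168 and 76595762 to 76623630, and Col6a3 lies on chromosome 1 at 90765923 to 90843971. Col4a1, at 11198423 to 11312826 on the minus strand of chromosome 8, and Col4a2, at 11312805 to 11449287 on the plus strand, overlap by the 22 bases shown, which lie in an exon of each.

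Fibroblasts held by far the most collagen RNA per UMI, and the fibrillar genes made up most of it. The summed collagen level of the fibroblast class, for the tumours E, EM1, EM2, EM3, M and parental in this order, was 83816, 183802, 177834, 117107, 163008 and 115254 CPM. The same order is used wherever 6 values are listed. Endothelial cells followed at 17406 to 24713 CPM and tumour cells at 2210 to 3283 CPM. The lowest fibroblast library lay above the highest endothelial library, and the lowest endothelial library above the highest tumour-cell library. Classes were drawn by the authors from the same cells, so class differences are descriptions without a test.

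Fibroblasts were 0.788 to 2.45% of the cells of a Total library, yet held 61.4, 39.0, 76.3, 48.2, 73.2 and 65.6% of all collagen UMIs of the library. Tumour cells held 12.1, 55.3, 17.5, 39.7, 22.5 and 28.7%. EM1, with 52 fibroblasts and 2865 tumour cells, was the library in which tumour cells held more collagen UMIs than fibroblasts. These shares follow the number of cells of each class that survived dissociation, so fewer fibroblasts and less collagen RNA per fibroblast cannot be told apart in them. Intervals of a level, a share or a chain ratio are 95% intervals and cover counting error only, since each clone is 1 tumour. The span given with a single log2 ratio joins the opposite ends of the 95% intervals of both levels, and is thus wider than a 95% interval. Other spans in brackets run from the lowest to the highest value over the libraries or contrasts.

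Of the 44 genes, 28 reached a median of 10 CPM over the 6 libraries in some class. Fibroblasts had the highest median for 22 of them, and 19 of these 22 were highest in fibroblasts in all 6 libraries. Endothelial cells led for 4, the basement membrane genes Col4a1 and Col4a2 and the multiplexins Col18a1 and Col15a1. Tumour cells led for Col4a5, a basement membrane chain, in all 6 libraries, and for Col11a2, a minor fibrillar chain, in 2 of 6. The other 16 members stayed under 10 CPM in every class by median, among them Col2a1 and Col10a1, chains of cartilage, and the rarer type IV chains Col4a3, Col4a4 and Col4a6.

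**Figure D1:**
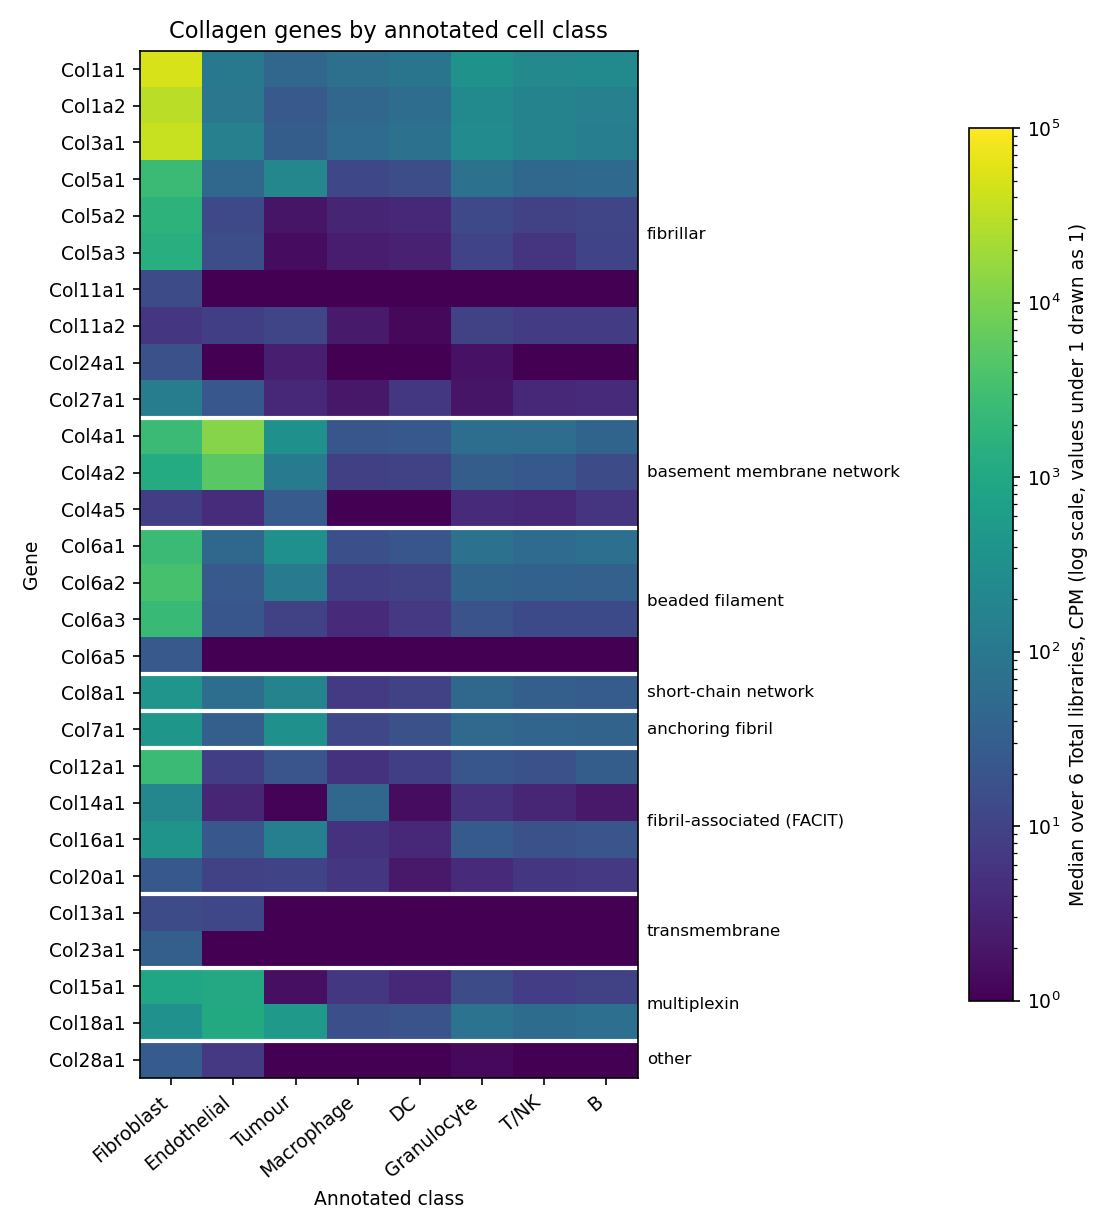
Median level of the 28 collagen genes that reached 10 CPM in some class, over the 6 Total libraries, as a colour on a log scale of CPM with values under 1 drawn as 1. Rows are genes grouped by family and columns are annotated classes: Col1a1 is brightest in fibroblasts (49053 CPM), and Col4a1 and Col4a2 are brightest in endothelial cells (12548 and 5177 CPM).

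Leukocytes also carried collagen UMIs, and those of granulocytes were taken as the level to set other classes against. Granulocytes, which are not known as collagen producers, had a summed collagen level of 844 to 2161 CPM but only 0.926 to 3.06 collagen UMIs per cell, at a median depth of 780 to 1460 UMIs. Macrophages, with a median depth of 5068 to 9561 UMIs, had 1.41 to 3.80 collagen UMIs per cell. Fibroblasts had 434 to 2299 and tumour cells 14.9 to 36.2. For Col1a1, UMIs per cell in T and NK cells lay at a median of 1.02 times the granulocyte value of the library (0.969 to 1.20), in dendritic cells at 1.02 times (0.947 to 1.10) and in B cells at 1.21 times (0.936 to 1.29). Macrophages lay at 1.19 times (1.05 to 1.29), and above granulocytes in 3 of 6 libraries. The ratio of Col1a1 to Col3a1 UMIs had a median of 1.32 in granulocytes, 1.32 in macrophages and 1.33 in fibroblasts, 1.37 in T and NK cells, 1.69 in B cells and 1.19 in dendritic cells. In granulocytes, macrophages and fibroblasts Col4a1 over Col4a2 was 2.23, 2.41 and 2.22. Col6a1 over Col6a2 differed, at 1.88, 1.64 and 0.766, as did Col5a1 over Col5a2, at 4.69, 3.72 and 1.65. Fibrillar genes held medians of 61.5, 48.4 and 87.6% of the collagen UMIs.

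UMIs per cell were therefore set against those of granulocytes of the same library. A member counted as above them where the intervals of both values did not overlap. In fibroblasts 26 of 44 members (59.1%) lay above granulocytes in all 6 libraries, where 33.5% of all 19369 genes did. In tumour cells 18 members did (40.9%, all genes 52.1%), in endothelial cells 5 (11.4%, all genes 27.9%) and in macrophages 3 (6.82%, all genes 45.9%). UMIs per cell also follow depth, so the rule was repeated on CPM, an alternative added after the data were seen. It left 19 members in fibroblasts (all genes 6.39%), 8 in tumour cells (20.5%), 4 in endothelial cells (7.12%) and 1 in macrophages (11.2%). The counts of the last 3 classes are therefore not read as a result about collagens. The 3 per cell in macrophages were Col14a1, Col15a1 and Col20a1. By median CPM Col14a1 stood at 48.3 in macrophages and 5.22 in granulocytes, Col20a1 at 6.19 and 4.17, and Col15a1 was lower in macrophages, at 6.49 against 14.5. The 10 members of tumour cells that did not stay above by CPM were Col1a1, Col4a6, Col5a1, Col6a2, Col9a3, Col11a2, Col12a1, Col20a1, Col24a1 and Col27a1. Of these the median of Col1a1 was far lower in tumour cells, at 43.9 CPM against 346 CPM in granulocytes, and that of Col12a1 slightly, at 20.7 against 22.1 CPM. In T and NK cells, B cells and dendritic cells no member lay above per cell in all 6, where 18.3, 9.29 and 19.0% of all genes did. In T and NK cells 44 of the 44 members lay above granulocytes in no library, in B cells 42 and in dendritic cells 40. The share of all genes above in no library was not counted, so these numbers are not read as a result about collagens. Col27a1 lay above them in 3 libraries in dendritic cells and in 2 in B cells, classes of 55 to 169 and 35 to 451 cells.

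**Figure D2:**
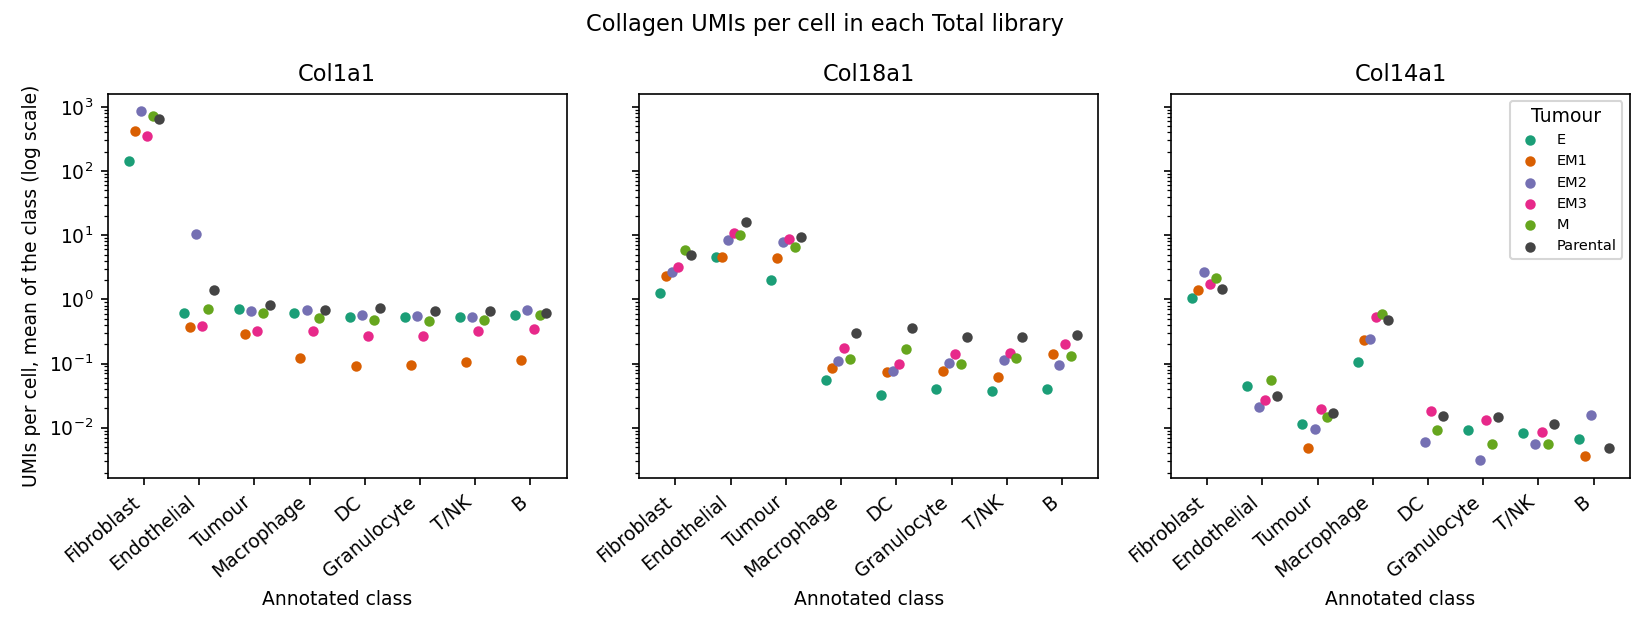
UMIs per cell of Col1a1, Col18a1 and Col14a1 in each annotated class, as the mean over the cells of the class on a log scale, with 1 point for each of the 6 Total libraries and values of 0 not drawn. T and NK cells lie at a median of 1.02 times and macrophages at 1.19 times granulocytes for Col1a1. Tumour cells lie at a median of 59.5 times granulocytes for Col18a1. Macrophages lie at a median of 39.0 times granulocytes for Col14a1, over the 5 libraries in which granulocytes had a UMI of it.

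Type I and type III chains led in fibroblasts. Col1a1, the main chain of type I collagen, stood at 27854, 64448, 66722, 41533, 56288 and 41818 CPM. Col3a1, the chain of type III collagen, stood at 21898, 50597, 45810, 27805, 46894 and 30135 CPM. Col1a2, the partner chain of Col1a1, ranged from 19922 CPM in E to 39122 CPM in EM1. E was the lowest library for all of these genes, and EM1 or EM2 the highest. The medians of Col1a1, Col3a1 and Col1a2 were 142, 146 and 125 times those of the next class, granulocytes.

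Other families were present in fibroblasts at lower levels. Fibrillar genes held a median of 87.6% of the collagen UMIs of the class (84.7 to 88.7%), and the beaded filament genes 6.21%. The type VI genes Col6a2, Col6a1 and Col6a3 had medians of 3485, 2577 and 2474 CPM. Col5a1 (2568 CPM) and Col5a2 (1704 CPM), chains of type V collagen that sits inside type I fibrils, and Col12a1 (2505 CPM), a fibril-associated collagen, were in the same range. Col6a3, Col5a2 and Col12a1 had medians 116, 133 and 85.0 times those of the next class. Col6a3 stood at a median of 9.88 CPM in tumour cells and 18.6 CPM in granulocytes, and reached 57.2 CPM in tumour cells of EM3. Col7a1 was less restricted to fibroblasts: its fibroblast median of 447 CPM was 1.38 times that of tumour cells, and fibroblasts led in 3 of 6 libraries.

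Within the fibroblast class Col4a1 stood higher in the cells with a UMI of Rgs5, a marker of pericytes and other mural cells, a split chosen after its values were seen. These were 13 of 135 cells in E, 11 of 52 in EM1, 37 of 228 in EM2, 21 of 84 in EM3, 71 of 261 in M and 37 of 259 in the parental class. Their Col4a1 level was 9449, 9879, 10685, 9903, 8999 and 3890 CPM, against 1196 to 1779 CPM in the cells without an Rgs5 UMI. Their Col1a1 level was 4027 to 24181 CPM, against 30520 to 73910 CPM in the cells without. Notch3, a receptor of mural cells, stood at 249 to 767 CPM in the former and 7.37 to 27.3 CPM in the latter. The fibroblast marker Dcn stood at 42.7, 54.8, 86.2, 47.1, 366 and 488 CPM in the former and 1046 to 2184 CPM in the latter. Fibroblast RNA was thus also present in cells with an Rgs5 UMI, most in M and the parental class. Col14a1, a fibril-associated collagen, showed the opposite order, with at most 48.3 CPM in cells with an Rgs5 UMI and 104 to 252 CPM in those without. In all 6 libraries Col4a1 was higher and Col1a1 lower in the cells with an Rgs5 UMI.

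In endothelial cells the basement membrane genes held a median of 84.9% of the collagen UMIs (72.7 to 86.9%) and the multiplexins 11.3%. Col4a1 stood at 10280, 13504, 12696, 14050, 12400 and 11213 CPM. Col4a2, its partner chain, ranged from 4350 CPM in E to 5845 CPM in EM1. The highest tumour stood at 1.37 times the lowest for Col4a1 and at 1.34 times for Col4a2, whereas Col1a1 in fibroblasts spanned 2.40 times. The medians were 4.92 and 4.40 times those of fibroblasts.

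Col18a1, whose product carries the endostatin fragment, stood at 1057, 1022, 1169, 1562, 1041 and 1413 CPM in endothelial cells, a median 2.26 times that of tumour cells. Col15a1, the other multiplexin, stood at 464 CPM in the parental tumour and 971 to 1504 CPM in the others. Fibroblasts had it at 563 to 1160 CPM, and the 2 classes overlapped. Fibrillar genes were high in endothelial cells of EM2 alone, with Col1a1 at 1453 CPM against 55.2 to 143 CPM in the other libraries. There 2 of 145 cells held 90.8% of the Col1a1 UMIs, and without them Col1a1 was 138 CPM. Those 2 cells held Pecam1 at 1862 CPM, Rgs5 at 4134 CPM and Dcn at 126 CPM.

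Tumour cells expressed a mixed set without a leading family. Basement membrane genes held a median of 20.1% of their collagen UMIs, multiplexins nearly as much, beaded filament genes 17.8%, fibrillar genes 12.8% and the anchoring fibril gene 11.6%. Col18a1 stood at 299, 474, 513, 590, 467 and 631 CPM, and 62.2 to 94.9% of tumour cells had a UMI of it, against at most 21.7% of granulocytes. Col7a1 stood at 484, 362, 288, 262, 280 and 432 CPM, and was highest in E and the parental tumour. Col4a1 stood at 355, 625, 272, 148, 390 and 283 CPM, with EM1 highest and EM3 lowest.

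Col6a1 stood at 188 CPM in E and 194 CPM in the parental tumour, below the 292 to 458 CPM of the other 4 tumours. Col8a1, a short-chain collagen of vessels, ranged from 137 CPM in EM3 to 297 CPM in EM1. Col16a1, a fibril-associated collagen, ranged from 76.0 CPM in E to 177 CPM in M. Of the genes named in tumour cells Col4a5 varied least, from 23.3 to 29.1 CPM. Per cell, Col18a1, Col4a5, Col16a1, Col7a1, Col6a1 and Col4a1 lay at medians of 59.5, 54.9, 52.5, 51.5, 46.2 and 43.1 times the granulocyte value, all above it in each library. Median depth differed between these classes, at 6539 to 15268 UMIs in tumour cells and 780 to 1460 in granulocytes.

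The type I and III genes lay close to the granulocyte value per cell in tumour cells. Col1a1 stood at 105, 30.4, 43.9, 21.8, 44.0 and 55.1 CPM. Per cell this was 1.20 to 2.99 times the granulocyte value of the same library. Col1a2 and Col3a1 lay at medians of 1.28 and 1.17 times that value and above it in 3 libraries each. Of the 3 genes, Col1a1 was thus above the granulocyte value per cell in all 6 libraries, by a small factor. By CPM the order was the reverse, with granulocytes at a median of 346 CPM (97.5 to 468) and tumour cells at 43.9 CPM.

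**Figure D3:**
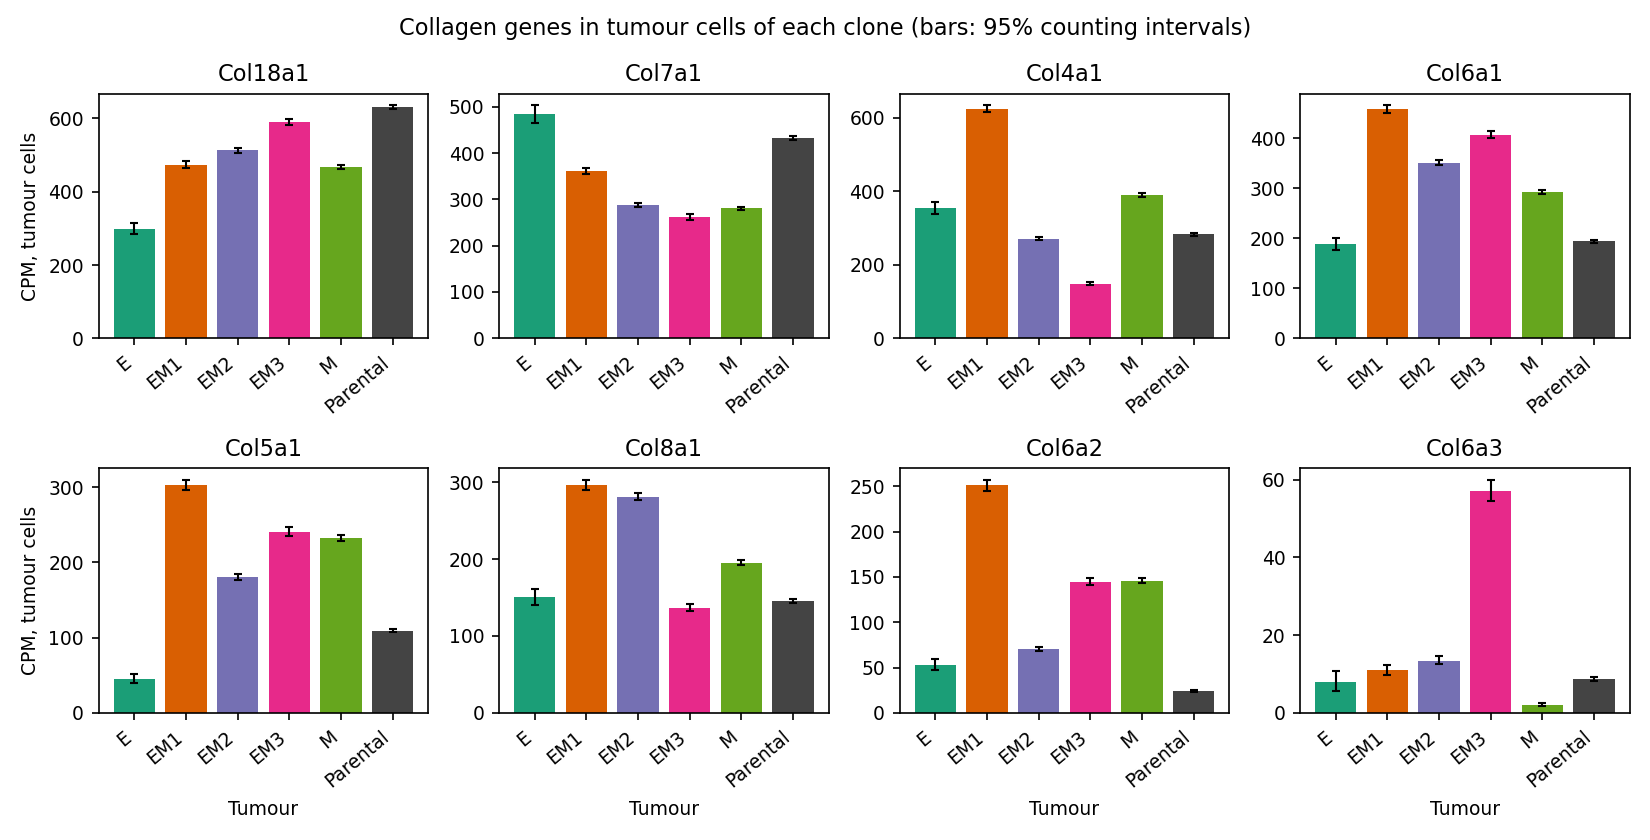
Level of 8 collagen genes in the tumour cells of each tumour, in CPM on linear axes from 0, with error bars for 95% Poisson intervals of counting error. Col5a1 and Col6a2 spread widely between tumours (45.0 to 303 CPM and 24.5 to 251 CPM), and Col6a3 stands at 57.2 CPM in EM3 and at most 13.5 CPM elsewhere.

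Tumour cells of the clones and the parental line were set against those of E, and a gene counted as called where log2 of the ratio of (CPM + 10) values was at least 1 in size. All contrasts share the E library, no group has a second tumour, and no test was made. EM3 against E is the contrast in which the libraries share many barcode starts. Col5a1, a type V chain that helps to start fibrils, was the member called higher in every contrast. It stood at 45.0, 303, 180, 241, 232 and 109 CPM. The log2 ratios over E were 2.51 (2.33 to 2.69), 1.79 (1.61 to 1.97), 2.19 (2.01 to 2.38), 2.14 (1.96 to 2.32) and 1.12 (0.94 to 1.30). A Col5a1 UMI was found in 22.3% of E tumour cells, 63.6% of parental ones and 81.9 to 82.9% of those of the other clones, against 4.18 to 12.6% of granulocytes. Tumour cells of E were also shallower, at a median of 6539 UMIs against 9689 to 15268, so the shares are not read as an order and the CPM values carry the comparison.

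Type VI genes differed between clones, and not in step. Col6a2 stood at 53.0, 251, 70.7, 145, 146 and 24.5 CPM. It was called higher in EM1 (log2 ratio 2.05, 1.87 to 2.23), EM3 (1.30) and M (1.31), and Col6a1 in EM1 (1.24) and EM3 (1.07). Col6a3 was at 57.2 CPM in EM3 and at 2.06 to 13.5 CPM elsewhere, with a log2 ratio over E of 1.91 (1.64 to 2.16). In EM3 19.9% of tumour cells had a Col6a3 UMI, against 2.40 to 11.2% in the other tumours and 3.26% of EM3 granulocytes, and the 5% of cells richest in it held 62.5% of its UMIs.

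Leaving only tumour cells without a UMI of Ptprc or of any of 10 fibroblast markers changed part of this, and left 349 to 2258 cells per tumour. The Col6a2 ratio of M over E became -0.081, and in EM3 those of Col6a1 and Col6a2 became 0.52 and 0.69. That of Col6a1 in EM1 became 0.89. The Col5a1 ratios became 2.24, 1.68, 1.83, 1.45 and 0.98, and that of Col6a3 in EM3 became 2.34. The fibroblast list includes Pdgfra, which tumour cells held at 35.6 CPM in E and 73.8 to 194 CPM elsewhere, and its part in these values, like that of depth, was not tested. All 10 markers of the list had a UMI in each tumour class, and their summed level was 87.7 CPM in E and 95.3 to 283 CPM in the others. Pdgfrb, a receptor of fibroblasts and mural cells, stood at 52.6 CPM in EM1, 36.8 CPM in M and at most 1.21 CPM elsewhere. The part of these cells in the Col6a2 result was not tested.

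In counts, EM1 had 3 members higher and 4 lower than E of 18 tested, where 2.92% and 6.17% of all genes tested were called higher and lower. EM2 had 1 higher and 5 lower of 18 (all genes 2.78% and 7.27%), and EM3 had 5 higher and 6 lower of 18 (all genes 2.81% and 7.08%). M had 3 higher and 2 lower of 17 (all genes 4.83% and 7.99%), and the parental tumour had 2 higher and 3 lower of 17 (all genes 2.05% and 7.29%). The medians of the members' log2 ratios were 0.34, -0.25, -0.52, 0.13 and -0.22, and those of all genes lay between -0.04 and 0.04. The median of the family thus had no common sign across the contrasts.

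Other members called higher were Col16a1 in EM3 (1.05) and M (1.12), and Col18a1 in the parental tumour (1.05). With only tumour cells without a UMI of Ptprc or of a fibroblast marker the Col16a1 calls were lost, at 0.90 and 0.84. Col4a1 was called lower in EM3 (-1.21, -1.31 to -1.10). The remaining lower calls were of genes highest in E. Col11a2 stood at 42.3 CPM in E and at 5.42 to 16.6 CPM elsewhere and was called lower in all contrasts but that of M, with ratios of -1.76 to -1.09. Col9a3, a cartilage-type fibril-associated chain, stood at 22.8 CPM in E and at most 9.64 CPM elsewhere, and Col20a1 at 24.3 CPM in E against 4.53 to 15.8 CPM. With the same restricted cells the Col9a3 calls in EM2 and EM3 were lost, at -0.93 and -0.86. Col1a1, Col1a2 and Col3a1 gave the other lower calls, 3 of 4 in EM1, 2 of 5 in EM2, 3 of 6 in EM3, 2 of 2 in M and 1 of 3 in the parental tumour. For these genes the tumour-cell level lay within 2.99-fold of the granulocyte value per cell, so the calls were not read as a difference in expression. Markers of leukocytes were also highest in the E tumour class, with Ptprc at 25.3 CPM against 4.04 to 6.51 CPM elsewhere.

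Pairs of chains that form 1 protein were set against each other within each class, with the ratio of their UMIs compared between classes and not read as a chain ratio in protein. Col4a1 over Col4a2 was steady, at a median of 2.39 in endothelial cells (2.31 to 2.59), 2.22 in fibroblasts (2.05 to 2.31) and 2.80 in tumour cells (2.55 to 3.07). The tumour-cell ratio overlapped the endothelial one at the edge and lay above the fibroblast one in all libraries. Type VI genes differed far more. Col6a1 over Col6a2 was 0.766 in fibroblasts (0.700 to 0.780) and 3.18 in tumour cells, with tumour values of 3.55, 1.82, 4.96, 2.81, 2.00 and 7.92. Every tumour-cell value lay above every fibroblast value.

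Col6a1 over Col6a3 was 0.997 in fibroblasts (0.905 to 1.20) and 25.0 in tumour cells, with 7.11 in EM3 the lowest and 142 in M the highest. Col5a1 over Col5a2 was 1.65 in fibroblasts (1.29 to 2.05) and 108 in tumour cells (19.6 to 304). Tumour cells thus held Col6a1 with little RNA of Col6a3 and Col5a1 with little of Col5a2, whereas fibroblasts held these partners at like levels. Per cell, Col5a2 in tumour cells lay at a median of 1.17 times the granulocyte value and above it in 0 libraries. Col6a3 lay at a median of 4.86 times (1.49 to 25.4) and above in 5 libraries. The ratios over these genes thus rest in part on UMIs near the granulocyte level. Col8a1 over Col8a2 was high in both, at medians of 81.1 and 114.

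**Figure D4:**
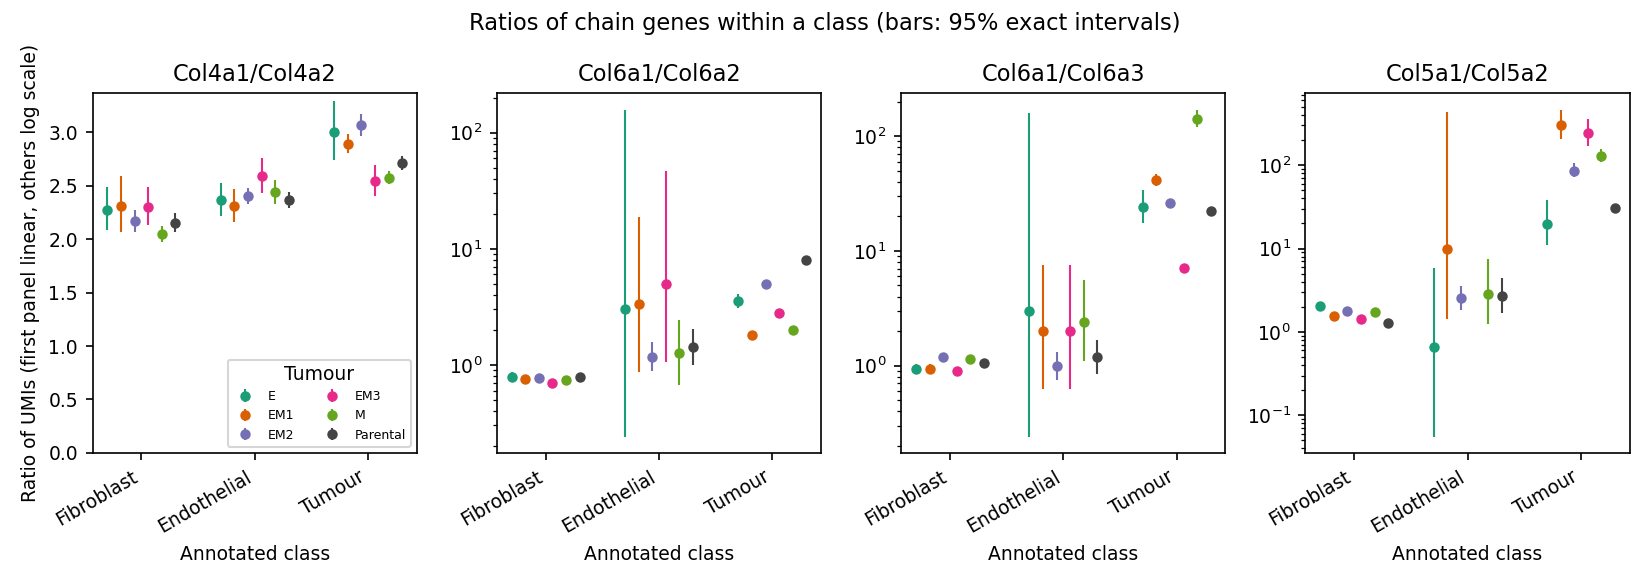
Ratio of UMIs of chain pairs of types IV, V and VI in fibroblasts, endothelial cells and tumour cells, with 1 point for each of the 6 Total libraries and bars for 95% exact intervals (first panel on a linear axis, the others on log axes). Col4a1 over Col4a2 lies between 2.05 and 3.07 in all of them, while Col6a1 over Col6a2 is below 1 in fibroblasts and 1.82 to 7.92 in tumour cells.

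Fibroblasts of the E tumour were lowest for the main fibrillar and type VI genes, and their class also held the most leukocyte RNA. Col6a2 stood at 1383, 4432, 4541, 3277, 3693 and 3092 CPM. Col6a1 stood at 1078, 3353, 3524, 2293, 2746 and 2408 CPM. For both, E lay below all other libraries by at least 2-fold. The log2 ratios over E were 1.15 to 1.71 for Col6a2 and 1.08 to 1.70 for Col6a1, called higher in all 5 contrasts, and Col6a3 was called in all but the parental one (1.05 to 1.60).

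In counts, 12 members were called higher and 1 lower of 32 tested in EM1, where 2.27% and 14.6% of all genes tested were called. EM2 had 11 higher and 2 lower of 30 (all genes 1.93% and 9.36%), EM3 had 4 higher and 1 lower of 30 (all genes 1.46% and 5.95%), and M had 8 higher and 0 lower of 30 (all genes 1.25% and 6.77%). The parental tumour had 5 higher and 1 lower of 30 (all genes 2.16% and 8.68%). The medians of the members' log2 ratios were 0.68, 0.34, 0.27, 0.51 and 0.13, where those of all genes were -0.29, -0.25, -0.11, -0.17 and -0.07.

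Col7a1 was the member with the largest ratio in EM1, at 1490 CPM against 316 CPM in E (log2 ratio 2.20, 1.89 to 2.52), and was also called in EM2 (1.39, 1.15 to 1.64). Col5a2 was called in EM1, EM2, M and the parental tumour (1.13 to 1.43), and Col12a1 in the same 4 (1.01 to 1.68). Col1a1 was called in EM1 (1.21), EM2 (1.26) and M (1.01), and Col3a1 in the same 3 (1.06 to 1.21). Col23a1, a transmembrane collagen, was called in EM1, EM2 and the parental tumour (1.24 to 1.96), and Col6a5 in EM1 and M (1.88 and 1.52). These rest on levels of at most 79.2 CPM. Col15a1 was called higher in EM3 (1.03). Col14a1 was called lower in the parental tumour (-1.01, -1.37 to -0.64), where it stood at 95.1 CPM against 168 to 211 CPM elsewhere. Col28a1 was called higher in EM1 (1.26, 0.33 to 2.17) and lower in EM2 (-1.23), and Col20a1 was called lower in EM2 (-1.16). The 4 Schwann cell markers of the fixed list summed to 41.5 CPM in the fibroblast class of E, where 4 of 4 had a UMI, to 0.339 CPM in EM2, where 1 had, to 0 in EM1 and to 4.79 to 88.3 CPM in the other 3. Col28a1 stood at 35.8 CPM in E, 9.50 CPM in EM2 and 99.7 CPM in EM1. The part of such cells in these calls was not tested. With the mean of each cell's own CPM, the calls of Col28a1 (0.67) and Col5a1 (0.88) in EM1, Col7a1 in EM2 (0.97), Col15a1 in EM3 (0.53), Col1a1, Col3a1 and Col12a1 in M (0.84, 0.99 and 0.89) and Col14a1 in the parental tumour (-0.63) were lost.

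The leukocyte marker Ptprc stood at 117 CPM in the fibroblast class of E and at 8.33 to 36.4 CPM in the others. There 24.4% of the E cells had a Ptprc UMI, against 7.69 to 16.7% elsewhere. The 6 granulocyte markers summed to 2414 CPM in E against 76.3 to 1154 CPM, and the 6 macrophage markers to 1626 CPM against 232 to 1327 CPM. All 12 had a UMI in the class of E. An alternative added after the data were seen left out cells with a Ptprc UMI. It gave 11, 9, 0, 3 and 1 members higher over the 5 contrasts, and 1, 2, 2, 2 and 2 lower. In the same cells 2.41, 2.09, 2.09, 1.40 and 3.33% of all genes tested were called higher, and 12.8, 8.40, 6.01, 5.92 and 7.99% lower. The calls of Col6a1 and Col6a2 were lost in EM3, at log2 ratios of 0.87 and 0.999, and in the parental tumour, at 0.84 and 0.81. Also lost were the calls of Col6a3 in EM3 (0.96) and M (0.76), Col3a1 in EM2 (0.91) and M (0.93), Col1a1 in M (0.80), Col5a1 in EM1 (0.82) and EM2 (0.96), Col15a1 in EM3 (0.81) and the lower call of Col28a1 in EM2. Those of Col5a2 (0.87 and 0.97) and Col12a1 (0.84 and 0.88) were lost in M and the parental tumour. Col6a1 then stood at 1415 CPM in E against 2550 to 3706 CPM, Col6a2 at 1877 against 3288 to 4785 CPM and Col1a1 at 33476 against 43775 to 69870 CPM. E thus stayed below the other 5 libraries for each, and its summed collagen level was 100929 CPM against 120630 to 192810 CPM. Leaving out cells with an Rgs5 UMI gave 15, 11, 5, 9 and 7 members higher and 1, 3, 2, 1 and 1 lower, where 2.76, 2.28, 2.16, 1.60 and 2.35% of all genes were called higher and 18.3, 10.6, 7.53, 9.17 and 8.99% lower.

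Genes that fold, modify, cut, cross-link or bind collagen were described from a list of 48. By median CPM the highest in fibroblasts were Sparc (17805), Bgn (5077) and Serpinh1 (2985), the last a chaperone of procollagen. In tumour cells they were Itgb1 (1039), Serpinh1 (969) and Sparc (783), and in endothelial cells Sparc (10995), Serpinh1 (1874) and Itgb1 (1099). In macrophages and granulocytes P4hb, a subunit of prolyl hydroxylase with a general role in folding, led at 684 and 658 CPM.

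In tumour cells 6 of 31 tested were called higher in EM1 and 1 lower, 3 and 0 of 31 in EM2, 7 and 2 of 31 in EM3, 8 and 2 of 31 in M, and 5 and 0 of 30 in the parental tumour, where 2.05 to 4.83% of all genes tested were called higher and 6.17 to 7.99% lower. Serpinh1 stood at 324, 1031, 919, 1055, 1018 and 877 CPM in tumour cells. Sparc, a collagen-binding matrix protein, stood at 126, 915, 726, 839, 862 and 455 CPM, and Crtap, a partner of prolyl 3-hydroxylase, at 71.2 CPM in E against 220 to 317 CPM. E was lowest for each. In fibroblasts 5 of 46 were called higher in EM1 and 2 lower, 8 and 0 of 45 in EM2, 2 and 1 of 45 in EM3, 2 and 1 of 45 in M, and 2 and 2 of 45 in the parental tumour, where 1.25 to 2.27% of all genes tested were called higher and 5.95 to 14.6% lower.

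Macrophages and granulocytes offered the comparison with replication, since each of 6 tumours gave both classes in a Total and a CD45 library. In macrophages Col1a1 stood at 22.8 to 114 CPM in the Total and at 0.460 to 2.14 CPM in the CD45 libraries. Its fitted log2 fold change was 5.67 (SE 0.105, edgeR), with Total higher in 6 of 6 pairs. The groups did not overlap. Both it and Col3a1 (5.76) reached the filter level in 5 of 6 CD45 libraries. Col1a2 (6.04), Col6a1 (6.08), Col8a1 (5.34), Col18a1 (5.13), Col5a1 (5.09) and Col7a1 (4.50) were also higher in Total in 6 of 6 pairs. They reached the filter level in 0 to 3 CD45 libraries. The filter asks for 6 libraries at its level, so Col1a1, Col3a1 and these genes all entered through the Total libraries. Their fold changes are a description. Of the 42 members measured in both kinds of library, 24 passed the filter on low counts, and 20 were called higher in Total and 1 lower, where 19.2% and 22.1% of the 12215 genes tested were called. Most members passed through their Total counts, with 9 of 24 at the filter level in all 6 CD45 libraries, so the count is a description. Of those 9, 5 were called higher and 1 lower. The share of all such genes was not counted, so this too is a description of the 9. The largest differences were those of Col4a1, at 2.97 (SE 0.120, adjusted p = 1.61e-08), and Col4a2, at 1.82 (SE 0.140, adjusted p = 2.98e-06). Both come from the edgeR quasi-likelihood test with Benjamini-Hochberg adjustment, with Total higher in 6 of 6 pairs.

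In granulocytes Col3a1 stood at 82.7 to 363 CPM in Total and 0.698 to 3.66 CPM in CD45 libraries (fitted log2 fold change 6.51, SE 0.167, edgeR). It reached the filter level in 0 of 6 CD45 libraries, so this is a description. All 16 members tested were called higher and 0 lower (0 also at an unadjusted p under 0.05 and by DESeq2), where 29.2% and 27.0% of 8291 genes were called. None of the 16 reached the filter level in all 6 CD45 libraries. They entered the test through their Total counts, so these counts, the 0 lower included, are a description that the filter fixes, and the other 26 of 42 members were not tested. The Total and CD45 libraries also differ in the sort and in the depth per cell, and the part of each was not tested.

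Col14a1 was among the members of the 24 not called higher in macrophages. It stood at 19.6, 42.8, 39.6, 53.8, 62.8 and 62.2 CPM in Total libraries, and at 17.9 to 57.6 CPM in CD45 libraries. The log2 fold change was 0.12 (SE 0.0708, adjusted p = 0.190, edgeR), with Total higher in 6 of 6 pairs. A Col14a1 UMI was found in 7.95, 17.4, 17.3, 30.5, 32.0 and 29.3% of Total macrophages, against 0 to 1.34% of granulocytes, at the median depths given above, and against 0.454 to 1.88% of tumour cells, which were at least as deep as macrophages. In CD45 libraries 9.30 to 27.2% of macrophages had one. By median CPM Col14a1 stood there at 36.6 in macrophages, 14.5 in dendritic cells (3.48 to 21.3) and 3.35 in granulocytes. In Total libraries dendritic cells held it per cell at a median of 1.35 times the granulocyte value, and above it in 0 libraries. Dcn, a defining fibroblast marker, stood at 1.67 to 6.70 CPM in Total macrophages. E was the lowest tumour for Col14a1 in both kinds of library.

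Other members that passed neither way in macrophages were Col6a6 (0.38, adjusted p = 0.0701) and Col9a3 (0.18, adjusted p = 0.325, both edgeR). For each of them Total was higher in 6 of 6 pairs. Col15a1 was called with a small difference, at 0.81 (adjusted p = 0.000638), and Col27a1 at 1.13. Col20a1 was the member called lower, at a log2 fold change of -0.26 (adjusted p = 0.0434, edgeR, Total higher in 2 of 6 pairs), a call lost without the tumour block, with DESeq2 and without any of the EM1, EM2, EM3, M or parental pairs. It stood at 3.65 to 7.20 CPM in Total and 4.98 to 7.44 CPM in CD45 libraries. Col20a1, a fibril-associated member, lay above granulocytes per cell in all 6 Total libraries, at a median of 7.31 times. Macrophages were also deeper, and by median CPM Col20a1 stood at 6.19 in macrophages, 4.17 in granulocytes, 6.16 in T and NK cells and 6.67 in B cells of Total libraries. Among the handling genes 22 of 38 tested were higher and 3 lower in macrophages, and 19 and 4 of 24 in granulocytes, where 19.2% and 22.1% of all genes were called in the former class and 29.2% and 27.0% in the latter. The same filter on low counts applied to them.

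**Figure D5:**
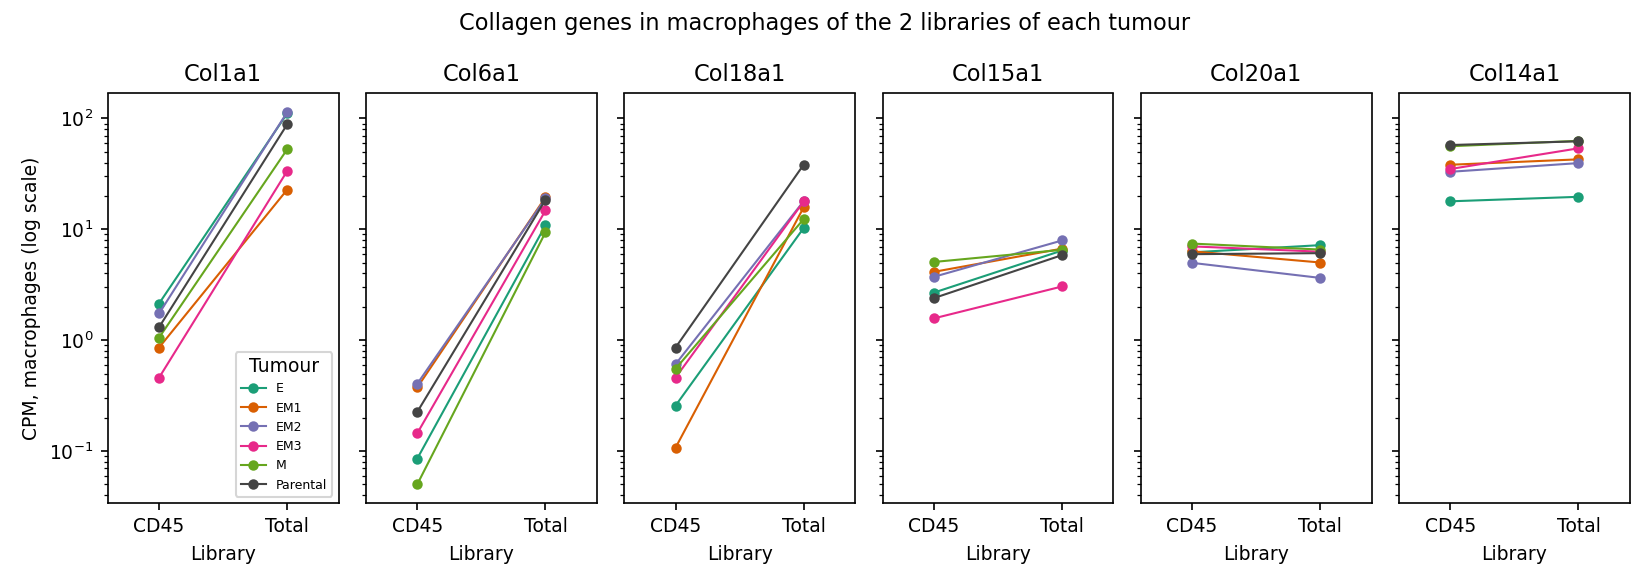
Level of 6 collagen genes in macrophages of the CD45 and Total libraries, in CPM on a log axis, with a line joining both libraries of a tumour. Col1a1 lies at 0.460 to 2.14 CPM in CD45 and 22.8 to 114 CPM in Total libraries, while Col14a1 lies at 17.9 to 57.6 and 19.6 to 62.8 CPM.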

How the data were processed

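Per the labels' protocols, cells were fixed with a fixed-RNA kit, while the reagents named are those of a 3′ kit. The labels thus do not settle whether RNA was read by probes or by 3′ capture. Cell barcodes had 24 bases, with 1 shared ending in each library. The submitters' processing notes name Cell Ranger and the mm10 build, with no version. The authors deposited 1 table of UMI counts per library, raw and whole, with cells filtered by limits that differ between libraries (the fewest genes in a cell ranged from 250 to 650 in Total libraries). Per the file headers, a second deposited table gives each cell's class and the mitochondrial share of its UMIs as a percent and as a fraction, which were not used in a result. The members and lists were chosen with earlier results of these data known.

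Doublets were called per library with Scrublet in scanpy 1.11.5 and 1 score limit for all libraries. They were 2135 of 115612 cells (1.85%, 1.03 to 2.62% per library) and were left out, so that 113477 cells remained. Counts of each class were added up per library and scaled to CPM, with exact Poisson intervals, and shares of cells have Clopper-Pearson intervals, all at 95%. Between tumours no test was made. A gene was tested against the call rule with at least 10 CPM in either tumour and a pseudocount of 10 CPM, which understates the change of low genes. Macrophages and granulocytes of Total and CD45 libraries were compared on summed counts with edgeR 4.0.16 (TMM, filterByExpr, quasi-likelihood test, tumour as a block, Benjamini-Hochberg over all genes tested, threshold 0.05), in R 4.3.3, and the fit was tested on simulated data. The pairing comes from both libraries being made from 1 dissociated tumour, per the labels. Both libraries of a tumour shared 850 to 1732 barcode starts. Those of E also shared 1400 to 1760 with those of EM3, and those of EM1 818 to 1332 with those of EM2, against 46 to 211 in other pairs, so whether the 6 blocks are fully separate was not tested. The SE of an edgeR fold change was derived from its size and the F statistic of the test. Pairs with Total higher were counted on CPM without TMM factors, so that count is not on the scale of the fit. DESeq2 1.42.0 was an alternative. With tumour as a block, p-values of this contrast measure how steady the difference between both libraries of a tumour was over 6 tumours. Clones have 1 tumour each, and these p-values do not measure the spread between clones.

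Genes named were, per class, up to 8 members with the highest median CPM (at least 10 CPM), in tumour cells up to 15 members, in each contrast up to 10 called members by size, and in the edgeR fits up to 8 by p. A few others are named where a sentence singles them out. A library was an outlier in a class by Dixon's rule over 6 values. Gene positions and sequences are of GRCm38 (mm10), with gene models of GENCODE and starts of RefSeq, whose promoter table (GRCm38.p6) held 35 of the 44 members and 32851 windows of 250 bases before to 50 after a start. Of the 44 members 42 are in the CD45 tables.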

Additional observations from a re-analysis of the deposited data

Results flagged for a closer look

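Outliers were sought over 71 pairs of gene and class, those of the naming rule above. These were up to 8 members per class by highest median, and up to 15 in tumour cells by highest value in any library. Of these pairs, 13 held a library whose gap to the nearest of the others passed Dixon's limit for 6 values. Chance flags about 1 in 20 such groups, a rate that does not cover members picked by their highest value. In endothelial cells of EM2, Col1a1 was 1453 CPM (next library 142.7), Col3a1 was 1308 CPM (next 221.7) and Col1a2 was 878.5 CPM (next 149.5), most of it in 2 cells. In tumour cells, Col6a3 was 57.16 CPM in EM3 (next 13.46), Col11a2 was 42.3 CPM in E (next 16.6) and Col1a2 was 79.43 CPM in E (next 30.86). In the parental library, Col18a1 was 183.2 CPM in granulocytes (next 85.73), 38.37 CPM in macrophages (next 17.98) and 92.05 CPM in dendritic cells (next 25.88). There Col7a1 was 142.3 CPM in granulocytes (next 73.55), 150.9 CPM in T and NK cells (next 55.78) and 108.1 CPM in dendritic cells (next 24.13). Tumour cells of that library held Col18a1 at 631 CPM, the highest of the 6, and Col7a1 at 432 CPM, below E. Col5a1 in B cells was lowest in E, at 13.73 CPM (next 44.21).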

How the results depend on the processing

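Of 261 alternatives to the summaries (levels, shares and counts), 230 stayed within the limits set for each and 31 moved. For single genes 1139 of 1238 stayed, 98 moved and 1 turned its sign, the Col6a2 ratio of M over E in tumour cells, -0.081 with only tumour cells without a UMI of a fibroblast marker or Ptprc. With that choice, 2 members were lower in EM2, 3 higher in EM3, 1 higher in M and 1 higher in the parental tumour. The matching shares of all genes tested were 6.3% for the lower calls of EM2 and 2.86% for the higher calls of EM3. For higher calls they were 5.32% (M) and 2.44% (parental). The mean of each cell's own CPM put the summed macrophage level at 560 CPM. It put the lower members of M tumour cells at 4 (all genes 8.73%). Those of EM3 and parental fibroblasts were 2 and 0 (all genes 8.76 and 9.38%). With a pseudocount of 1 CPM the lower members were 5 in M tumour cells, and 3, 6, 5, 3 and 4 in fibroblasts of EM1, EM2, EM3, M and the parental tumour. Under this pseudocount 13% of all genes tested were lower in M tumour cells. In the fibroblast contrasts the share ran from 12.6% (EM3) to 24.7% (EM1). Without Ptprc cells (added after the data were seen) the fibroblast counts were 0 higher and 2 lower in EM3, 3 and 2 in M, and 1 and 2 in the parental tumour. With CPM in place of UMIs per cell (added) 8 members lay above granulocytes in tumour cells and 1 in macrophages. Without Rgs5 cells (also added) 2 were lower in EM3 and 1 in M. The shares of all genes for these added choices are given above.

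Between Total and CD45 libraries, without the replicate block 18 members were higher in macrophages (20 with it) and 16 in granulocytes (16 with it). In macrophages 0 were lower (1 with it). Without the block 10.4% and 24.8% of all genes were called higher, and 1.16% lower in macrophages. DESeq2, which tested 42 members in macrophages and 28 in granulocytes where edgeR tested 24 and 16, gave 28 and 18 higher and 0 lower in macrophages. Of the members edgeR also tested, 19 and 15 were higher. Leaving out each tumour's pair gave 20 to 21 higher and 0 to 1 lower in macrophages, and 15 to 18 higher in granulocytes. For the fits without a tumour's pair the share of all genes was not counted. The cause of these moves was not tested. The alternative annotation column was not run, since the Total tables hold 1 such column. Depth limits the rarer members: those under 10 CPM rest on few UMIs in the 37 to 145 endothelial cells and 52 to 261 fibroblasts of a library.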
